A study of Homo sapiens with 4 samples.

Results

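The cluster of miR-424, miR-503, miR-542 and miR-450a is a group of miRNA hairpins on the X chromosome, read from the minus strand in the order MIR424, MIR503, MIR542, MIR450A2, MIR450A1 and MIR450B. The members described here are the 4 mature miRNAs hsa-miR-424-3p, hsa-miR-503-5p, hsa-miR-542-3p and hsa-miR-450a-5p, taken by name from 2366 human miRNA rows of the count tables. Of 11 mature miRNA names of these hairpins, 9 had a row and 6 had enough reads to be tested, among 464 tested miRNAs, and all 4 members were among the 6. The other tested products were miR-542-5p and miR-450b-5p.

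Small RNA was sequenced from K562, a long-established cell line from human chronic myeloid leukaemia, that carried dCas9-KRAB, an inactive Cas9 fused to a repressor domain that silences the gene its guide RNA points to. Polyclonal lines with guide RNA 1 or guide RNA 2 against ERH were sampled on day 5, either with 0.05 µg/ml doxycycline (ERH knockdown) or without it (control), which gave 1 library per guide RNA and condition, or 2 per group. Both groups therefore shared the dCas9-KRAB background and an ERH guide RNA, and differed in doxycycline as well as in ERH. Cells that received doxycycline with no ERH guide RNA were not analysed here, so ERH loss and doxycycline cannot be told apart. The knockdown libraries held 2227374 and 2393565 human miRNA reads against 1430434 and 2476700 in controls. Small-RNA libraries hold no ERH mRNA, so how far ERH fell was not checked. Each guide RNA and condition has a single library, so the p-values speak only of the spread among these libraries, which may be technical.

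A miRNA starts as a hairpin in a long primary transcript. The Microprocessor, made of the nuclease Drosha and its partner DGCR8, cuts the hairpin out, Dicer then removes the loop, and 1 arm of the stem is usually kept in Argonaute. ERH is a small conserved protein that binds DGCR8, and the study asked whether hairpins that the Microprocessor handles poorly depend on ERH and on a neighbouring hairpin in the same transcript. The pair of miR-424 and miR-503 is known for restraining the cell cycle and for rising during monocyte differentiation, where miR-424-5p, the other arm of MIR424, represses the transcription factor NFIA. miR-542-3p is known to target survivin, an inhibitor of apoptosis.

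The mature sequences show which of these miRNAs can share targets, since bases 2 to 8 (the seed, in capitals) direct most target pairing. RefSeq (GRCh38.p14) held a mature sequence for 5 of the 6 tested miRNAs of the cluster. The arm miR-424-5p, which had no row in the tables used here, and miR-16-5p are shown beside them to compare seeds.
hsa-miR-424-3p: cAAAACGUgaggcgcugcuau
hsa-miR-503-5p: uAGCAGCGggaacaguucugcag
hsa-miR-424-5p: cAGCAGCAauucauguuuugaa
hsa-miR-16-5p: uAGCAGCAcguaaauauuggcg
hsa-miR-542-5p: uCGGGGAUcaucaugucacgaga
hsa-miR-450a-5p: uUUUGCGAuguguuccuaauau
hsa-miR-450b-5p: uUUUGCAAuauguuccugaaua
The seed of miR-424-5p is that of miR-15a-5p and miR-16-5p. Seeds were compared among the 413 tested miRNAs with a RefSeq mature sequence. Of these, 5 carried the seed of miR-424-5p, while each of the 5 tested products of this cluster shown here was the only one with its seed. miR-450a-5p and miR-450b-5p had the same letter at 16 of 22 positions, counted from the 5′ end, but different seeds. miR-450a-5p is made with the same sequence from MIR450A1 and MIR450A2, so its reads cannot be split between those hairpins.

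MIR424 and MIR503 are printed whole because they are the closest neighbours at the 5′ end of the cluster. The counts of their tested products also parted most between adjacent hairpins, as described below. Capitals mark the 2 mature arms of each, the 5p arm first.
MIR424: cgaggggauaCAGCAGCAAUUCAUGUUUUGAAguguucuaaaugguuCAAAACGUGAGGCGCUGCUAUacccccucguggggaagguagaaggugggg
MIR503: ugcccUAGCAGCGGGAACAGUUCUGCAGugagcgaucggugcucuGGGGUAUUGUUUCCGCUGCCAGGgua
MIR424 lies at chrX:134546614-134546711 and MIR503 at chrX:134546328-134546398 on the minus strand (GRCh38, GENCODE 29), 215 bases apart. MIR424 overlaps the start of the long noncoding RNA gene MIR503HG, with 19 of its bases in an annotated exon, and MIR503 lies in an intron of that gene. MIR542 follows after 4890 bases, then MIR450A2 after 733, MIR450A1 after 76 and MIR450B after 78 bases, and none of these 4 overlaps an annotated gene on their strand other than the hairpins themselves. The 6 hairpins span 6527 bases.

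After ERH knockdown, miR-424-3p was lower and its neighbours were not lower to the same degree. miR-424-3p and, with a sign that turned under library-size or spike-in scaling, miR-450a-5p fell relative to the bulk of miRNAs, while miR-503-5p and miR-542-3p did not pass the test. The count of miR-424-3p per count of miR-503-5p, miR-542-3p, miR-450a-5p or miR-450b-5p was lower in both knockdown libraries than in both controls. Groups also did not overlap in 79.5% of the 83 hairpin pairs outside the chromosome 19 cluster, and none of these ratios passed in limma with 1 prior variance (adjusted p from 0.127 to 0.175). Levels are in CPM, that is counts brought to the same library total, with TMM factors, which hold the bulk of miRNAs level between libraries. In such bulk samples fewer cells of a type and less RNA per cell cannot be told apart.

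miR-424-3p had 57.0 and 59.5 CPM in the knockdown libraries with guide RNA 1 and 2, against 111 and 105 CPM in the controls with the same guide RNAs. The groups did not overlap, and the highest knockdown library minus the lowest control was -45.2 CPM. How often groups did not overlap in CPM among all tested miRNAs was not counted, so non-overlap alone says little. For 2 against 2 libraries an exact permutation test allows no two-sided p under 0.33. The levels of miR-424-3p rest on 150 and 163 reads in the knockdown libraries, against 140 and 217 in the controls. Its log2 fold change, knockdown over control, was -0.88 ± 0.12 (SE, n = 2 each, edgeR quasi-likelihood test, adjusted p = 2.90e-05), so that the level fell by 45.7%. Within guide RNA 1 its log2 ratio of knockdown to control was -0.96 (95% counting interval -1.30 to -0.62), and within guide RNA 2 it was -0.82 (-1.12 to -0.52).

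miR-450a-5p had 166 and 165 CPM after knockdown, against 203 and 199 CPM in controls. Its groups did not overlap either, though the share of all tested miRNAs with such groups in CPM was not counted. Its log2 fold change was -0.28 ± 0.09 (SE, edgeR, adjusted p = 0.022), with log2 ratios of -0.29 (-0.52 to -0.06) within guide RNA 1 and -0.27 (-0.47 to -0.08) within guide RNA 2. That call did not hold with DESeq2 (-0.33, adjusted p = 0.0504) or without a filter on low counts (-0.26, 0.0896). Leaving out any 1 library ended it too, at adjusted p from 0.0502 to 0.0945, while the log2 fold change stayed between -0.32 and -0.27.

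Among the tested products of the cluster, miR-503-5p was the most read. It had 217 and 223 CPM after knockdown and 231 and 250 CPM in controls, which is a change of -0.13 ± 0.09 (log2, SE) that did not pass (edgeR, adjusted p = 0.23). Both knockdown libraries lay below both controls, the highest knockdown library minus the lowest control being -7.36 CPM, a gap smaller than the SD of the controls (13.9 CPM). miR-542-3p had 43.7 and 50.4 CPM after knockdown and 42.0 and 42.5 CPM in controls, so that both knockdown libraries lay above both controls. Its change of 0.15 ± 0.16 did not pass (edgeR, adjusted p = 0.45), and its counting intervals within guide RNA 1 (-0.43 to 0.55) and guide RNA 2 (-0.15 to 0.65) both reached to either side of 0.

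The other tested products came from the last hairpin of the cluster and from the second arm of MIR542. miR-542-5p had 22.04 and 21.2 CPM after knockdown and 20.6 and 20.3 CPM in controls (0.08 ± 0.22 log2, SE, edgeR, adjusted p = 0.77). miR-450b-5p had 33.4 and 31.4 CPM after knockdown and 27.8 and 36.7 CPM in controls, so that its groups overlapped (-0.03 ± 0.19, adjusted p = 0.89). Reads of miR-542-5p per read of miR-542-3p were 0.504 and 0.420 after knockdown and 0.491 and 0.477 in controls, and these groups overlapped too (exact permutation test, two-sided p = 1). MIR542 was the only hairpin of the cluster with both arms tested. The remaining rows were close to the limit of detection. miR-450a-1-3p was read 6 and 9 times after knockdown, against 4 and 6 times in controls, while miR-503-3p and miR-450b-3p had 0 to 2 reads in any library. Where no read was found, as many as 3 remain possible, which is 1.10 CPM on the TMM scale in knockdown replicate 2 and 2.38 CPM in control replicate 1, the libraries with such rows. That limit, like the intervals, covers counting error only.

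**Figure D1:**
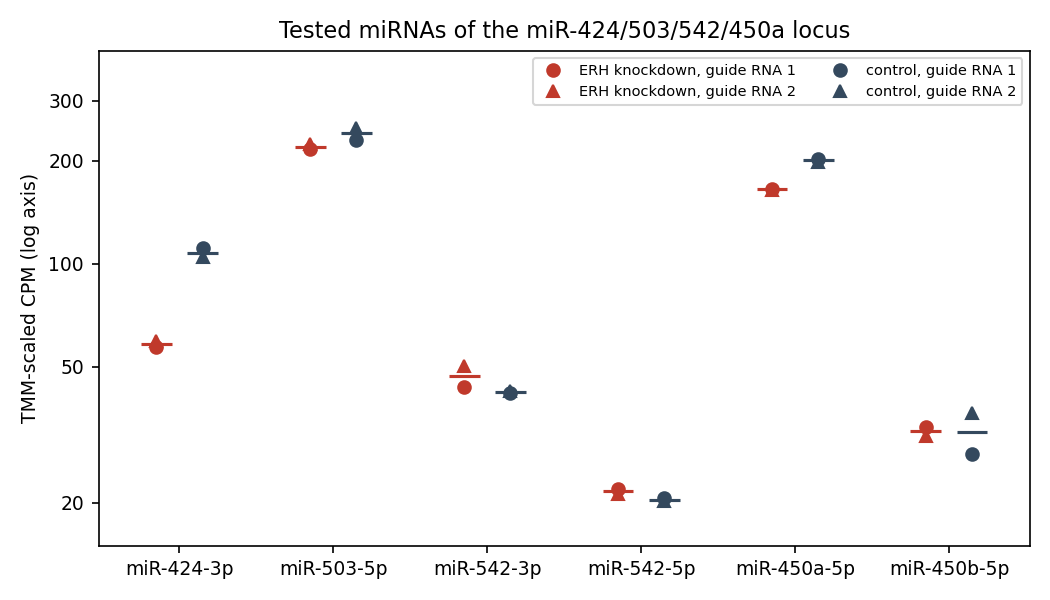
TMM-scaled CPM (log axis) of the 6 tested miRNAs of the cluster in each library; circles are guide RNA 1, triangles guide RNA 2, and short lines are group means. The knockdown libraries of miR-424-3p sit at 57.0 and 59.5 CPM, below the controls at 111 and 105 CPM, whereas those of miR-450b-5p lie between the controls.

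In counts, 2 of the 4 members were called, both lower in knockdown cells, and 0 were called higher. Over all 464 tested miRNAs 50.9% were called, 25.2% lower and 25.6% higher, so a share of 2 in 4 is near the background and says nothing particular of the cluster. Over the 4 members the median log2 fold change was -0.21, beside 0.06 over the 464.

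**Figure D2:**
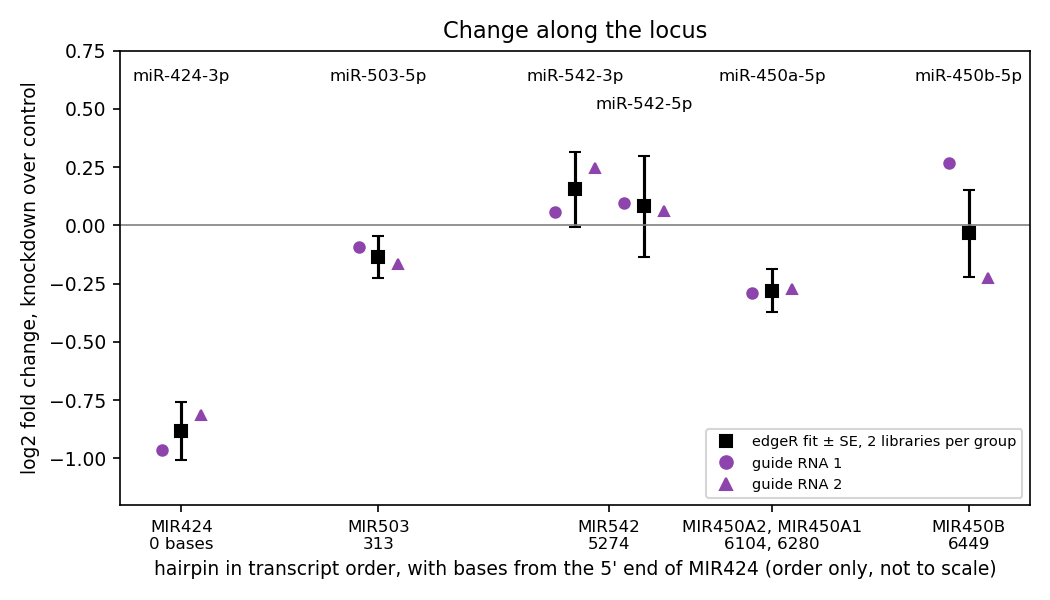
Log2 fold change, knockdown over control, of each tested miRNA in transcript order, with the distance in bases of each hairpin from the 5′ end of MIR424 (the axis shows order only); squares are the edgeR fit ± SE, circles and triangles the ratios within guide RNA 1 and 2. miR-424-3p, from the first hairpin, lies at -0.88 and the other 5 lie between -0.28 and 0.15.

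How the libraries were scaled to each other decided the sign of miR-503-5p and miR-450a-5p. With TMM the 464 tested miRNAs had a median of 0.06 on the log2 scale. Library size alone shifted that median by 0.44, and the added spike-in RNAs shifted it by 0.68. The split of calls over all tested miRNAs with TMM was 119 higher to 117 lower, with library size 273 higher to 41 lower, and with spike-ins 186 higher to 8 lower. miR-424-3p kept a negative value under each of these, at -0.44 ± 0.14 with library size (SE, adjusted p = 0.0056) and at -0.19 ± 0.35 with spike-ins, where it was not called (adjusted p = 0.66). miR-542-3p kept a positive value, and it passed with library size (0.60 ± 0.17, adjusted p = 0.0022) and with spike-ins (0.84 ± 0.35, adjusted p = 0.040). miR-503-5p turned to 0.31 ± 0.11 with library size (adjusted p = 0.011) and to 0.55 ± 0.36, not called, with spike-ins. miR-450a-5p turned to 0.16 ± 0.11 and 0.41 ± 0.36, neither of them called. "Lower" and "higher" above are thus relative to the bulk of miRNAs, not to the number of cells.

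The spike-in scale itself was uneven within groups. Per 1000 spike-in reads, miR-424-3p stood at 2.53 and 3.40 in the knockdown libraries, overlapping the 3.03 and 3.73 of the controls, although within each guide RNA the knockdown library was the lower. miR-542-3p had 1.94 and 2.88 reads per 1000 spike-in reads after knockdown, both above the 1.15 and 1.51 of controls. For both miRNAs the library with guide RNA 2 stood above that with guide RNA 1 in each group. An edgeR fit with spike-in scaling and the guide RNA as a replicate block, chosen after seeing the data, gave miR-424-3p -0.19 ± 0.15, which did not pass (adjusted p = 0.25). In that fit the other 5 tested products were all called higher, among them miR-542-3p (0.86 ± 0.19), miR-503-5p (0.56 ± 0.12) and miR-450a-5p (0.41 ± 0.12), beside 337 miRNAs called higher and 17 lower of the 464.

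**Figure D3:**
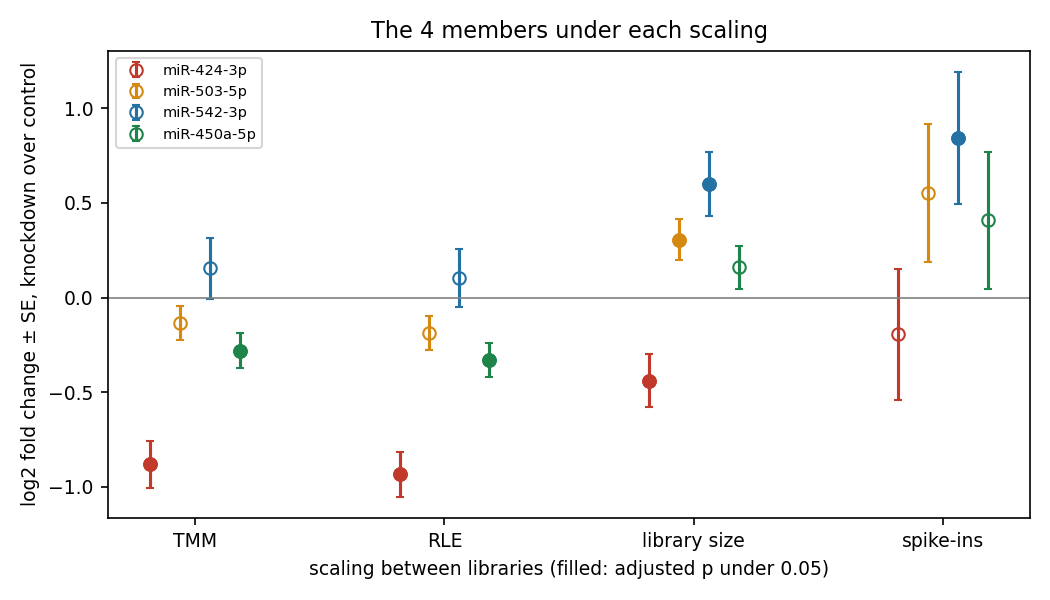
Log2 fold change ± SE, knockdown over control, of the 4 members with TMM factors, RLE size factors, library size alone and spike-ins; filled points had an adjusted p under 0.05. The 4 members keep their order at the top and bottom under each scaling, with miR-542-3p highest and miR-424-3p lowest, while the whole set shifts upward with library size and spike-ins.

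Ratios of counts within 1 library need no scaling, and they separated miR-424-3p from the rest of its cluster. There were 0.263 and 0.266 reads of miR-424-3p per read of miR-503-5p after knockdown, against 0.481 and 0.418 in controls. Both knockdown libraries lay below both controls, with a mean of 0.265 ± 0.002 in the knockdown and 0.450 ± 0.045 in the control libraries (SD, n = 2 each). This ratio of products of the adjacent hairpins MIR424 and MIR503 was 1.69-fold lower after knockdown, with a log2 change of -0.76 ± 0.17 (SE of a limma fit over all clustered hairpin pairs). MIR424 was read through its 3p arm alone, since miR-424-5p had no row, so a change of arm use was not tested.

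The ratio of miR-424-3p to miR-542-3p changed most in the fit on all 4 libraries. It was 1.30 and 1.18 after knockdown and 2.64 and 2.47 in controls, with a mean of 1.24 ± 0.09 after knockdown and 2.55 ± 0.12 in controls (SD, n = 2). That is 2.05-fold lower after knockdown, with a log2 change of -1.03 ± 0.16 in the fit, -1.02 (95% counting interval -1.59 to -0.44) within guide RNA 1 and -1.06 (-1.55 to -0.58) within guide RNA 2. Against miR-450a-5p, miR-424-3p stood at 0.343 and 0.361 after knockdown and at 0.547 and 0.527 in controls, 1.52-fold lower (log2 -0.61 ± 0.16). Against miR-450b-5p it stood at 1.70 and 1.90 after knockdown and at 4 and 2.86 in controls, 1.87-fold lower (log2 -0.90 ± 0.24). That ratio changed more than the one to miR-542-3p within guide RNA 1 (-1.23 against -1.02) and without control replicate 2 (-1.14 against -1.08). In all 4 of these ratios the difference between the group means was larger than the spread within either group.

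Ratios among the other members moved less. There were 4.96 and 4.43 reads of miR-503-5p per read of miR-542-3p after knockdown and 5.49 and 5.90 in controls (log2 -0.28 ± 0.17). miR-503-5p per miR-450a-5p was 1.30 and 1.36 after knockdown and 1.14 and 1.26 in controls (0.15 ± 0.16). miR-542-3p per miR-450a-5p was 0.263 and 0.306 after knockdown and 0.207 and 0.214 in controls (0.43 ± 0.17). Within guide RNA 1 the counting intervals of all 3 of these changes included 0, and within guide RNA 2 that of miR-542-3p per miR-450a-5p did not (0.09 to 0.95).

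**Figure D4:**
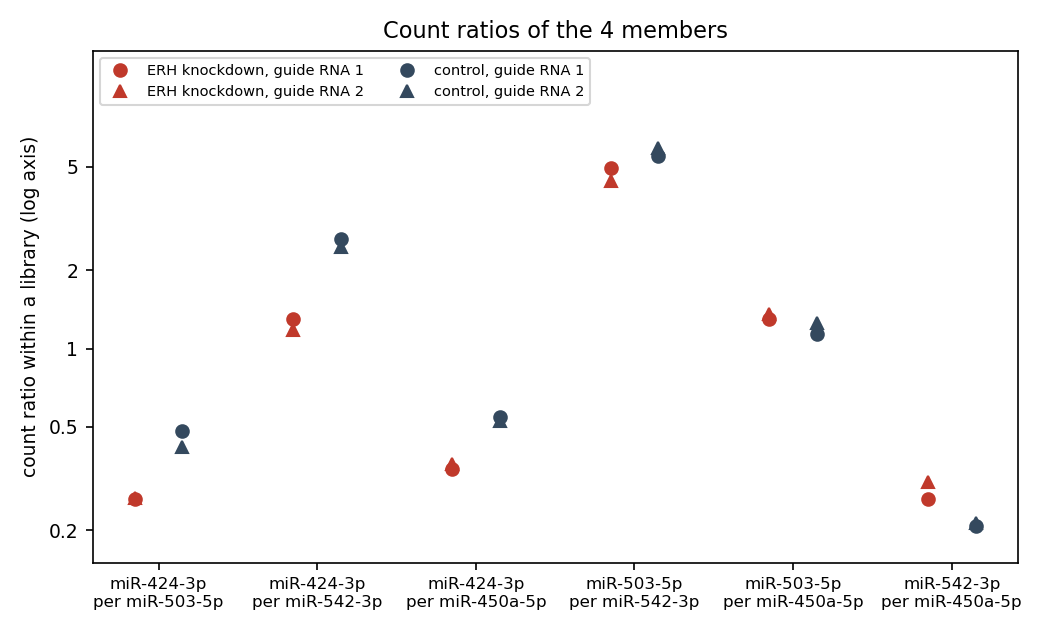
Count ratio within each library (log axis) for the 6 pairs of members, the hairpin nearer the 5′ end over the other; red is knockdown, dark blue control, circles guide RNA 1 and triangles guide RNA 2. The ratio of miR-424-3p to miR-542-3p lies at 1.30 and 1.18 in knockdown libraries and at 2.64 and 2.47 in controls, the widest separation of the 6.

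All 6 ratios between members had groups that did not overlap, but so did many others. Among 336 pairs of hairpins chained within 10 kb on 1 strand, 49.4% had groups that did not overlap, and among the 83 pairs outside the large chromosome 19 miRNA cluster, 79.5% had. The 6 ratios also share 4 miRNAs and are not independent. By size, the change of miR-424-3p per miR-542-3p ranked 8th of those 83 pairs, that of miR-424-3p per miR-503-5p ranked 20th and that of miR-424-3p per miR-450a-5p ranked 26th. Of the remaining member pairs, miR-542-3p per miR-450a-5p ranked 35th, miR-503-5p per miR-542-3p 44th and miR-503-5p per miR-450a-5p 58th. The median size over the 83 pairs was 0.30 and that over the 6 member pairs was 0.52 (log2).

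Whether these ratios pass a test turned on the variance model. With 1 prior variance for all pairs, limma called 0% of the 336 pairs (69 had an unadjusted p under 0.05), and the adjusted p was 0.127 for miR-424-3p per miR-542-3p, 0.145 per miR-503-5p and 0.174 per miR-450a-5p. With a prior variance that follows read depth it called 12.2% of the 336 pairs, but 37 of the 83 pairs outside the chromosome 19 cluster. Among them were these 3 of the 6 member pairs, at limma adjusted p of 1.72e-05, 2.51e-05 and 4.05e-04. A share of 3 in 6 is thus near that of the 83 pairs. Without control replicate 1 or 2, the log2 change of miR-424-3p per miR-542-3p was -0.99 and -1.08. That of miR-424-3p per miR-450b-5p was -0.67 without control replicate 1 and -1.14 without control replicate 2. These fits gave both ratios the same SE (0.33), not one from their own spread, so passing there is not counted. No pair of this cluster without miR-424-3p passed in either version on all libraries, the closest being miR-542-3p per miR-450a-5p at an adjusted p of 0.051 in the second. In the exact permutation test each of the 6 ratios had a two-sided p of 0.33, the smallest that 2 against 2 allow.

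**Figure D5:**
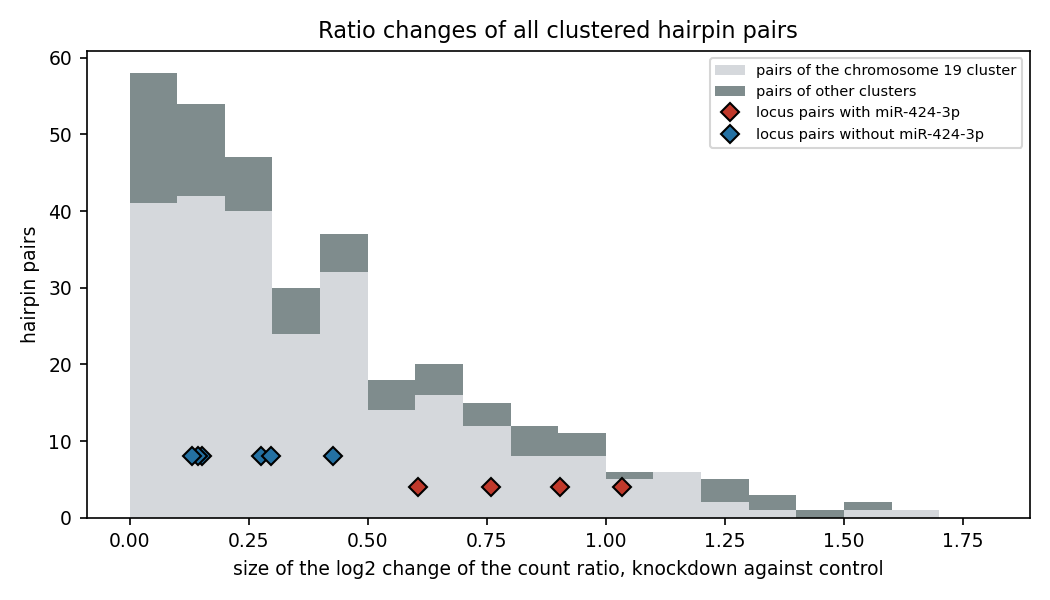
Size of the log2 change in count ratio, knockdown against control, for the 336 pairs of clustered hairpins (bars, chromosome 19 cluster in light grey, other clusters in dark grey, the cluster described here left out of the bars); diamonds mark its 10 pairs, at heights chosen only for legibility. The 4 pairs with miR-424-3p lie between 0.61 and 1.03 and the 6 without it between 0.13 and 0.43.

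As shares of the reads of the 6 tested products, miR-424-3p made up 10.6% (exact Clopper-Pearson 95% interval 9.03% to 12.3%) and 10.8% (9.29% to 12.5%) after knockdown, against 17.5% (14.9% to 20.3%) and 16.03% (14.1% to 18.1%) in controls. The intervals of the knockdown libraries did not reach those of the controls. miR-503-5p made up 40.2% and 40.6% after knockdown and 36.3% and 38.3% in controls, and miR-450a-5p 30.8% and 29.9% after knockdown and 32.0% and 30.4% in controls, with intervals that overlapped between the groups. The cluster, as read in its 6 tested products and with no row for miR-424-5p, was a minor part of each library. Its 6 products summed to 539 and 551 CPM after knockdown and to 635 and 653 CPM in controls, and without miR-424-3p to 482 and 491 CPM after knockdown and 524 and 549 CPM in controls. As a share of all human miRNA reads the order was the other way, with 0.0637% and 0.0630% after knockdown and 0.0560% and 0.0547% in controls.

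miR-503-5p has a seed close to that of the miR-15/16 family, which represses cyclins and BCL2, and 5 of the 6 tested miRNAs with the one seed or the other fell while miR-503-5p did not pass, beside 25.2% of all tested miRNAs called lower. miR-15a-5p fell by 0.80 ± 0.05, miR-15b-5p by 0.60 ± 0.05 and miR-16-5p by 0.30 ± 0.05, and the far less read miR-195-5p and miR-497-5p fell by 0.64 ± 0.15 and 0.56 ± 0.19 (log2, SE, edgeR, adjusted p at most 0.021). With spike-ins none of the 5 was called (with the replicate block too, miR-16-5p was, higher at 0.39), and with library size miR-16-5p turned to 0.13 and was called higher, while miR-195-5p (-0.20) and miR-497-5p (-0.12) were not called. Nor was miR-497-5p called with DESeq2 (adjusted p = 0.071), or without knockdown replicate 1 (-0.62), knockdown replicate 2 (-0.52) or control replicate 1 (-0.36). Per 1000 reads of miR-16-5p there were 8.12 and 8.30 reads of miR-503-5p after knockdown and 6.99 and 7.56 in controls, and per 1000 reads of miR-15a-5p there were 39.2 and 40.5 after knockdown and 24.0 and 25.9 in controls. The 5 ratios of miR-503-5p to family members, which share that miRNA, had log2 changes of 0.18 to 0.67 and groups that did not overlap (exact permutation test, two-sided p = 0.33, the smallest possible). Among hairpin pairs within 1 genomic cluster 49.4% did not overlap either, and 79.5% outside the chromosome 19 cluster. No such share was computed for miRNAs of different loci, which these 5 ratios join.

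The hairpins of the cluster differed in predicted stability. RNAfold gave MIR503 a folding energy of -59.4 kcal/mol per 100 bases, the 39th most stable of 330 hairpins of tested miRNAs that have a RefSeq hairpin sequence, whose median was -48.4. MIR424 stood at -42.7 and ranked 243rd, MIR450A1 at -38.1 and 284th, MIR542 at -36.0 and 297th, and MIR450B at -29.2 and 324th. In MIR542 57.7% of the bases were paired, the 9th lowest share of the 330. The GC content was 27.5% in MIR450A1 and 28.2% in MIR450B, the 3rd and 4th lowest, against 51.0% in MIR424 and 59.2% in MIR503. These values depend on where the annotation ends each hairpin, and any relation between folding and the changes was not tested.

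Some miRNAs of other loci had nearly the same pair of ratios as a member. By Euclidean distance over the log2 ratios within the 2 guide RNAs, miR-424-3p was closest to miR-191-3p (0.02; fold change -0.88 ± 0.16) and miR-425-5p (0.04; -0.90 ± 0.06), which come from neighbouring hairpins. The more read arm of the first, miR-191-5p, rose by 0.54 ± 0.16 relative to miR-425-5p (log2, SE, limma). That ratio had a limma adjusted p of 0.207 with 1 prior variance and 3.84e-07 with the depth-dependent one. miR-450a-5p was closest to miR-16-5p (0.03) and miR-30d-5p (0.04; -0.31 ± 0.05). miR-503-5p was closest to miR-423-3p (0.01; -0.13 ± 0.05, adjusted p = 0.043 with edgeR and 0.051 with the replicate block) and let-7f-2-3p (0.02; -0.12 ± 0.23), and miR-542-3p to miR-597-5p (0.05; 0.14 ± 0.15) and miR-5690 (0.06; 0.15 ± 0.19). The call of miR-423-3p was also lost without knockdown replicate 1 (-0.15), knockdown replicate 2 (-0.13) or control replicate 2 (-0.13), without a filter (-0.11) and with a mean of at least 10 CPM (-0.09), and with library size alone it was called higher (0.31). Within a distance of 0.25 there were 15 miRNAs of other loci around miR-424-3p, 67 around miR-503-5p, 43 around miR-542-3p and 63 around miR-450a-5p.

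Of 32 other tested miRNAs from clusters on chromosome X, 2 were called higher and 13 lower after knockdown, with a median log2 fold change of -0.27, beside 25.6% called higher and 25.2% lower of all tested miRNAs. All 5 miRNAs listed for erythroid and myeloid cells were present, at a summed 114194 and 116380 CPM after knockdown and 146206 and 155466 CPM in controls. That order is on the TMM scale only. It was not computed as a share of all human miRNA reads, where the sum of the cluster turned the other way. The TMM factors alone set the sum over all tested miRNAs, at 845529 and 873255 CPM after knockdown and 1133890 and 1194430 CPM in controls. Those factors were 1.183 and 1.145 in the knockdown libraries and 0.882 and 0.837 in the controls. The lower sum is therefore no measured fall of total miRNA. Of the 5 listed miRNAs 1 rose and 3 fell, where 50.9% of all tested miRNAs were called. The list of other cell types, of which 10 of 11 names had a row, summed to 1417 and 1432 CPM after knockdown and 1286 and 1287 CPM in controls, and 2 of its 4 tested miRNAs rose, where 25.6% of all tested miRNAs were called higher. These were miR-145-5p (0.26), not called without knockdown replicate 1 or 2 or control replicate 2 (0.25, 0.25 and 0.19), and miR-200c-3p (0.35). The call of miR-200c-3p was lost with DESeq2, RLE size factors, no filter, the replicate block (adjusted p = 0.077) and without any 1 library, at 0.28 to 0.41. Of the neuronal miRNAs on that list, miR-124-3p was read 0 and 1 times after knockdown and 0 times in both controls, but miR-9-5p was read 826 and 884 times after knockdown, against 419 and 812 times in controls, and the lymphocyte miR-155-5p had at most 1 read in any library. The part of any such shift in the values of the cluster was not tested.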

How the data were processed

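The deposited files hold raw read counts per mature miRNA, 1 library each, as the values show. The aligner, miRNA annotation, genome build and treatment of reads matching several miRNAs were not given in the sources used here. Per the labels' protocols, total RNA was prepared with TRIzol and the small RNA purified on a gel. Of 2368 rows, 2 are, by their names, spike-in RNAs, kept out of totals and tests.

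Counts were filtered with filterByExpr (minimum count 10, minimum total 15), scaled with TMM and fitted with the edgeR 4.0.16 quasi-likelihood test across all 464 miRNAs, knockdown against control, without a block, with Benjamini-Hochberg adjustment and a threshold of 0.05. Log2 count ratios (offset 0.5) of hairpins chained within 10 kb (GENCODE 29), each standing by its most read tested miRNA, were fitted with limma 3.58.1. Counting intervals within a guide RNA are exact binomial for single miRNAs and normal for ratios. Scripts used R 4.3.3, Python 3.11.15 and RNAfold 2.7.2, and the tests were tested on simulated data.

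The replicate number is the guide RNA and thus its polyclonal line, so it pairs the libraries by design, although deviations of same-numbered libraries were not positively correlated (-0.11 across miRNAs). The libraries within a group were not duplicates, since chi-square divided by its degrees of freedom was 4.73 in knockdown and 11.0 in control libraries. The miRNAs named are the members, the other rows of the cluster, the miR-15/16 seed family and, for each member, the 2 miRNAs nearest in within-guide ratios. From the cell-type lists, miR-145-5p, miR-200c-3p, miR-124-3p, miR-9-5p and miR-155-5p were named after their values were seen. The same holds for miR-191-5p, which is on none of these lists. Members and lists were chosen with earlier results of these data known. Alternatives were DESeq2 1.42.0, other scalings and filters, the replicate block, each library left out and, for ratios, other offsets, prior variances and chain distances (3 and 50 kb).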

Additional observations from a re-analysis of the deposited data

Results flagged for a closer look

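miR-450b-5p moved in opposite directions with the 2 guide RNAs, at a log2 ratio of knockdown to control of 0.27 (95% counting interval -0.31 to 0.88) within guide RNA 1 and -0.22 (-0.69 to 0.24) within guide RNA 2. The same held for 2 ratios that contain it. The log2 change of miR-503-5p per miR-450b-5p was -0.36 (-0.96 to 0.24) within guide RNA 1 and 0.059 (-0.42 to 0.54) within guide RNA 2, and that of miR-542-3p per miR-450b-5p was -0.21 (-0.95 to 0.52) within guide RNA 1 and 0.47 (-0.12 to 1.06) within guide RNA 2. The difference between the guide RNAs was not tested, each of these intervals includes 0, and the lowest library, the control with guide RNA 1, held 35 reads of miR-450b-5p.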

How the results depend on the processing

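Over all tested miRNAs the count of calls was 236, 230 with the replicate block, 146 with DESeq2 and 117 to 195 without 1 library, the lowest without knockdown replicate 1; without control replicate 2 it was 140. Of the 6 tested miRNAs of the cluster 2 were called; 4 were called with library size alone, 5 with spike-in scaling and the replicate block (chosen after seeing the data), 1 with spike-in scaling, without a filter, with DESeq2 and without any 1 library. The block changed no call of the cluster with TMM. Of the 6 ratios between members 0 passed, and 3 passed with the depth-dependent prior variance, beside 37 of the 83 pairs outside the chromosome 19 cluster. With hairpins chained within 3 kb, ratios across the 4890 bases between MIR503 and MIR542 were not formed. In that setting miR-424-3p per miR-503-5p passed (limma, adjusted p = 0.021, over 94 pairs). Without 1 library, the log2 change of miR-424-3p per miR-542-3p stayed between -1.11 and -0.96. With 1 library left in a group, its spread is assumed to be that of the other.

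Library size alone turned the sign of miR-503-5p (0.31), miR-450a-5p (0.16), miR-450b-5p (0.41), miR-16-5p (0.13), miR-423-3p (0.31), let-7f-2-3p (0.33) and miR-30d-5p (0.13). Spike-in scaling turned that of miR-503-5p (0.55), miR-450a-5p (0.41), miR-450b-5p (0.65), miR-15b-5p (0.087), miR-16-5p (0.39), miR-195-5p (0.033), miR-497-5p (0.11), miR-423-3p (0.56), let-7f-2-3p (0.54) and miR-30d-5p (0.38). miR-450b-5p was at 0.0096 with a mean of at least 10 CPM and at -0.19 to 0.20 without 1 library, where let-7f-2-3p ranged from -0.26 to 0.0009, miR-597-5p from -0.023 to 0.23, miR-5690 from -0.11 to 0.35 and miR-542-3p per miR-450b-5p from -0.060 to 0.32. With the replicate block as well, spike-in scaling turned the same miRNAs (miR-503-5p 0.56, miR-450a-5p 0.41, miR-450b-5p 0.67, miR-15b-5p 0.088, miR-16-5p 0.39, miR-195-5p 0.042, miR-497-5p 0.11, miR-423-3p 0.56, let-7f-2-3p 0.55 and miR-30d-5p 0.38). No other sign turned among the miRNAs of the naming rule, miR-145-5p, miR-200c-3p and the 10 hairpin ratios. The arm ratio and the ratios to seed-family members had no alternatives run, and the cause of these changes was not tested. miR-424-3p lay between -0.95 and -0.19 over all settings and lost its call only with spike-ins, with or without the block. Reads limit the rest: 35 to 88 of miR-450b-5p and 26 to 58 of miR-542-5p per library.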
